A study of Homo sapiens with 4 samples.

Results

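The genes described here encode the machinery that cuts and polyadenylates mRNA precursors, together with Integrator, which cuts and attenuates many other RNA polymerase II transcripts. The 36 members were taken from a named list of subunits: 22 of cleavage and polyadenylation and 14 of Integrator, of 69222 gene identifiers in the count tables. All 36 were found by symbol, and 35 had enough counts to be tested. They were measured as poly(A) RNA in HEK293T, an established line of human embryonic kidney origin, transformed with adenovirus DNA and later given SV40 T antigen. A lentivirus delivered a short hairpin RNA (shRNA) to every sample: 2 libraries received a control hairpin (shCtrl) and 2 a hairpin against RPRD1B (shRPRD1B), a protein that binds the phosphorylated C-terminal domain of RNA polymerase II. Both groups thus share the viral transduction, and loss of RPRD1B and any other effect of its hairpin cannot be told apart. Nothing in the labels makes the replicates separate cultures, so p-values rest on a spread between libraries that may be technical.

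Most mRNA 3′ ends are made by a complex in which CPSF recognises the poly(A) signal and cuts, CstF binds GU-rich sequence downstream, and the CFIm complex binds UGUA motifs upstream. A poly(A) polymerase then adds the tail, nuclear and cytoplasmic binding proteins coat it, and the exonuclease XRN2 degrades the RNA left on the polymerase during termination. Integrator has its own endonuclease, related to that of CPSF, and carries a PP2A phosphatase; it matures small nuclear RNAs and ends transcription early at many genes.

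The libraries held between 47732913 and 65572391 counts. RPRD1B itself measured 50.4 and 50.1 CPM (counts scaled to a common library size) with the control hairpin; with its own hairpin it measured 27.2 and 35.5 CPM, the direction of its label. Its log2 fold change of -0.68 ± 0.16 (SE) did not pass the threshold over all genes with edgeR (adjusted p = 0.448) and did with DESeq2 (adjusted p = 0.0467). The knockdown libraries differed from each other more than the controls did: the median absolute log2 difference between the libraries of a group was 0.32 for shRPRD1B and 0.12 for shCtrl over 20319 tested genes. All 8 listed genes of the HEK293 background were detected, with summed levels between 620.5 and 698.4 CPM. Of 8 leukocyte markers 7 stayed under 1 CPM in every library. The 8 fibroblast markers summed to 38.25 and 33.8 CPM in shCtrl and to 24.7 and 22.2 CPM in shRPRD1B. Of these 4 stayed under 1 CPM in every library, with COL1A2 at 0 counts in all. Most of each sum was COL1A1, with 32.9 and 27.3 CPM in shCtrl and 20.05 and 19.4 CPM in shRPRD1B. LUM was also lower (2.195 and 2.445 CPM, then 0.870 and 0.620 CPM). PDGFRB was higher (0.633 and 0.616 CPM, then 1.13 and 0.639 CPM), and the groups overlapped for COL3A1. The 9 neuronal markers summed to 65.8 and 62.2 CPM in shCtrl and to 131 and 128 CPM in shRPRD1B, and their part in the results below was not tested. Of these SYP, a synaptic vesicle protein, had 27.5 and 24.2 CPM in shCtrl and 77.25 and 78.05 CPM in shRPRD1B and was the one neuronal marker that passed the threshold (edgeR adjusted p = 0.0434). SLC17A7, which marks excitatory neurons, had 3.715 and 4.13 CPM in shCtrl and 3.22 and 3.03 CPM in shRPRD1B, and STMN2 stayed under 1 CPM in every library. All samples were HEK293T, so these sums are levels of transcripts and not shares of cell types. In bulk RNA, fewer cells that express a marker and less of its RNA per cell cannot be told apart.

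The members' own 3′ ends and promoters are shown first, since the former carry the signal that this machinery reads. In the last 50 bases of 1 transcript per gene (GENCODE 29, GRCh38), 29 of 36 members have AATAAA, 2 have ATTAAA without it (CPSF4 and INTS3), and 5 have neither (CPSF1, INTS1, INTS2, INTS8 and INTS11). The shares over 13744 tested coding genes are 63%, 14.3% and 22.7%. The 6 windows below, each read 5′ to 3′ on the gene's strand with the poly(A) signal in capitals, show the pair CSTF2 and CSTF2T, the members with the smallest p (NUDT21 and PAPOLG) and both genes with the variant signal. They lie at chrX:100840889-100840918 (plus strand), chr10:51695491-51695520 (minus), chr16:56429138-56429167 (minus), chr2:60798927-60798956 (plus), chr7:99457342-99457371 (plus) and chr1:153774775-153774804 (plus), in that order.
CSTF2: tctgtgacttgaAATAAActttgaacacaa
CSTF2T: tttcatgcagaaAATAAAgatacaattaag
NUDT21: tattgtcatttcAATAAAaaatatttgaaa
PAPOLG: gcaaaagataagAATAAAatcacataacca
CPSF4: ttttatgaaatggATTAAAgcttgtttttt
INTS3: tcctctgtcccaATTAAAaccaggatggag

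Promoters of 29 members were read from RefSeq (GRCh38.p14), from 250 bases before to 50 bases after the start site. The word TTTGGCG, one form of the core of an E2F-like site, or its reverse complement CGCCAAA occurred in 7 of the 29 (24.1%), against 2.77% of 11419 tested coding genes. These 7 were CLP1, CPSF3, CSTF2, INTS2, INTS4, INTS7 and PABPN1, so that both machineries were represented. The other words searched on both strands were closer to those shares or absent: GGGCGG, the GC box, in 72.4% against 69.4%; CCAAT in 48.3% against 36.3%; the ETS-like word CCGGAAG in 34.5% against 17.6%; the NRF1-like word GCGCATG in 17.2% against 7.01%; CACGTG in 10.3% against 9.79%; AAGATGG in 6.9% against 7.06%; ACTACAA in 3.45% against 3.55%; TTTCGCG, the other form of the E2F-like core, in 3.45% against 2.33%; and TATAAA in none of 29, against 5.88%. A match is a description of the sequence and not a measured site, and no test was made of these shares. The windows below show the E2F-like word in capitals with 16 bases on either side, on the gene's strand, at chr17:61928077-61928115 (minus strand), chr14:23321286-23321324 (plus), chr11:77994811-77994849 (minus), chrX:100820369-100820407 (plus), chr2:9423420-9423458 (plus) and chr11:57657588-57657626 (plus); the INTS7 window, at chr1:212035724-212035762 (minus), holds the word at 2 places, and the one nearer the start site is in capitals.
INTS2: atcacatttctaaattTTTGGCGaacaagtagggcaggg
PABPN1: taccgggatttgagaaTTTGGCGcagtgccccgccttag
INTS4: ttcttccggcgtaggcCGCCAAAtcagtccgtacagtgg
CSTF2: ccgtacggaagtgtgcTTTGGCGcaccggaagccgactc
CPSF3: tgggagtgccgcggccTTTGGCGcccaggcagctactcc
CLP1: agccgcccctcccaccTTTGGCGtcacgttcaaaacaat
INTS7: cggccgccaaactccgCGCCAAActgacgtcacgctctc

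The main comparison asked whether transcripts of these subunits differed between shRPRD1B and shCtrl. None of the 35 tested members passed the threshold with edgeR's quasi-likelihood test (smallest Benjamini-Hochberg adjusted p = 0.657, for PAPOLG), where 0.0295% of all tested genes were called higher and 0.0394% lower. DESeq2 also called 0 members (0.62% of all genes higher and 0.561% lower), as did limma voom. At an unadjusted p under 0.05 edgeR gave 2 members higher, PAPOLG and NUDT21, and 0 lower, against 3.55% and 3.94% of all genes. DESeq2 gave 4 members higher and limma voom 2, and neither gave any lower. No share of all genes at that cut is given for these tools, so their counts cannot be read against the edgeR shares. Outside INTS3, the 95% intervals of the 34 log2 fold changes ran from -0.53 at the lowest bound (INTS12) to 0.84 at the highest (INTS2), so that changes of 2-fold in either direction lay outside each of them.

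The fitted values were mostly small and positive. Since the members were chosen with earlier results of these data known, the shares given for them are descriptions and not tests. A positive log2 fold change was found for 28 of the 35, against 50.5% of all genes, and the median was 0.16, against 0.00. With upper-quartile factors 25 were positive, as CSTF3, CLP1 and INTS9 turned sign, and with library size alone 29 were, as CPSF2 did. Without shRPRD1B 2 only 22 were positive, against 48.7% of all genes, and 8 members turned sign. Without shRPRD1B 1 the count was 30, against 48.5% of all genes. In 15 members the lower knockdown value exceeded the higher control value (42.9%, against 20.3% of all genes), and in 3 both lay below (8.57%, against 20.6%). Mean levels of the tested members other than INTS3, which is lower, ran from 18.6 to 849 CPM. The 8449 genes within that range were above in 24.1% and below in 18.7%, had a positive value in 56.6% and had a median of 0.03. The plot of values by library shows shRPRD1B 2 farthest from the controls for most of them.

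**Figure D1:**
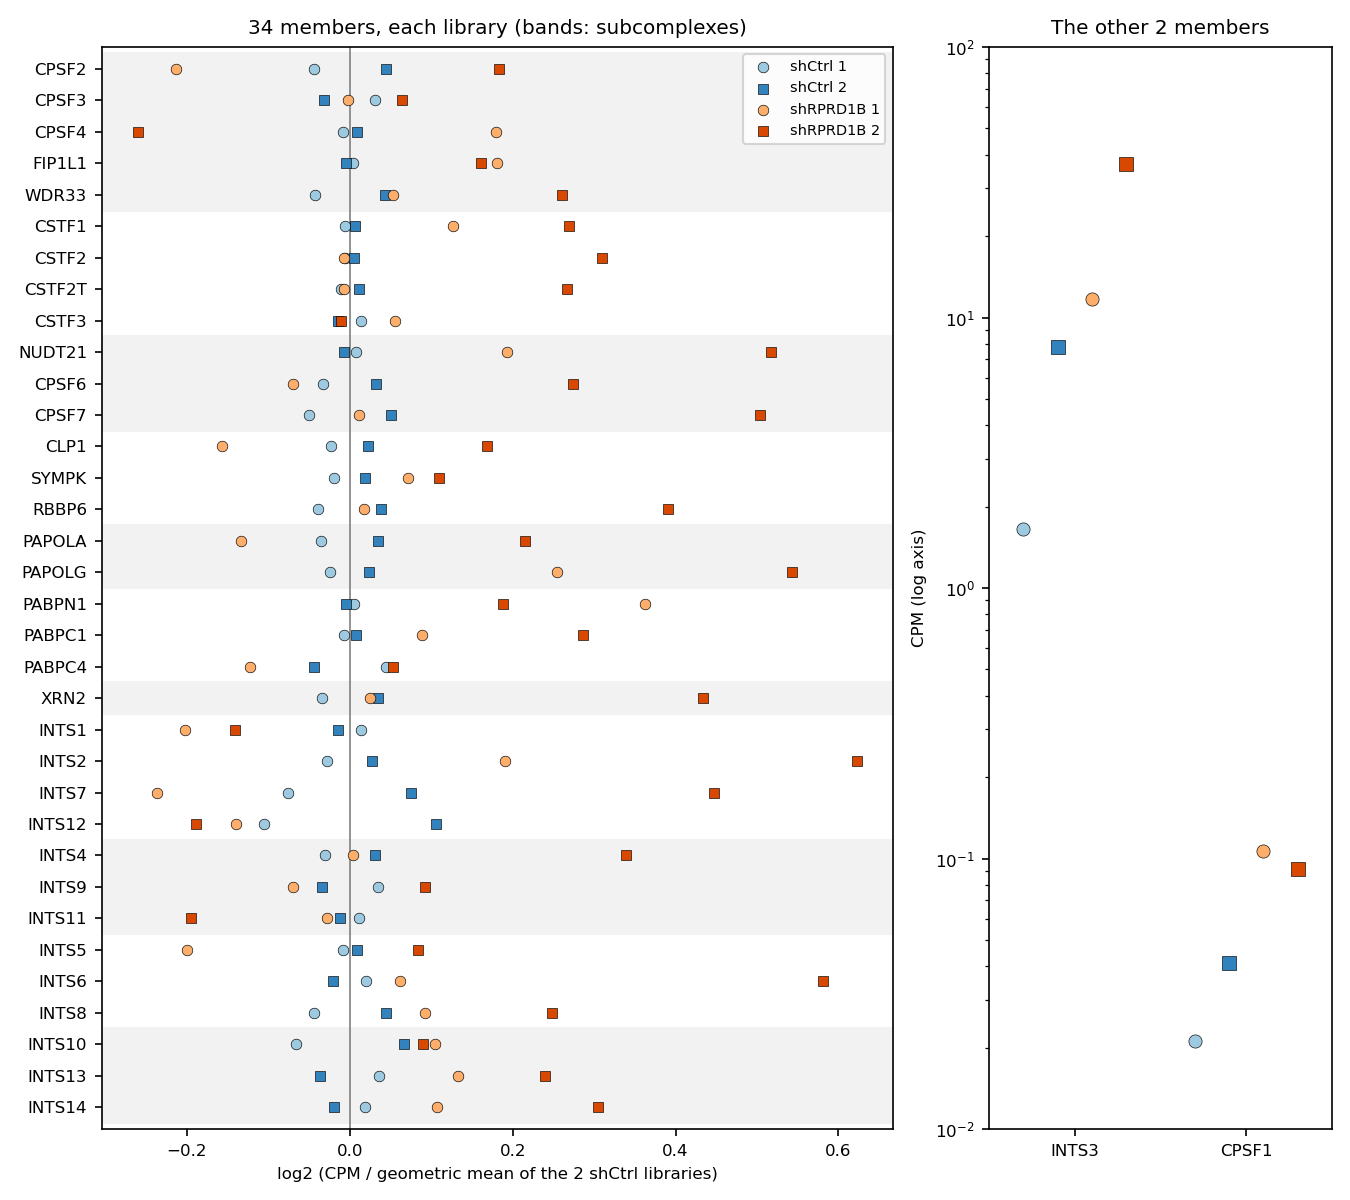
Level of each member in the 4 libraries: on the left the log2 of CPM relative to the geometric mean of the 2 shCtrl libraries for 34 members, with grey and white bands separating subcomplexes; on the right CPM on a log axis for INTS3 and CPSF1. Circles are replicate 1 and squares replicate 2; the dark orange squares of shRPRD1B 2 lie farthest right for most members, and INTS3 spans 1.65 to 36.8 CPM.

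Each knockdown library was then set alone against the control pair. The members' median log2 difference was 0.02 in shRPRD1B 1, with 21 of 35 above zero, and 0.25 in shRPRD1B 2, with 30 of 35 above zero. The same medians over all genes were 0.00 in both, and over genes in the members' CPM range 0.00 and 0.05. Of the 35 members, 28 were higher in shRPRD1B 2 than in shRPRD1B 1, against 49.6% of all tested genes and 56.4% of genes in the members' CPM range. In an edgeR fit of shRPRD1B 2 alone with both controls, 19 members were called higher and 2 lower (CPSF4 and INTS11), where 14.6% of all genes were called higher and 14.4% lower. In the fit of shRPRD1B 1 alone, PABPN1 was called higher and INTS1 lower, where the shares of all genes were 5.91% and 4.47%. In both fits the lone library is assumed to vary as the controls do, so the calls compare libraries and not conditions, and the fits share their controls. Their shares are over all tested genes, and none was computed for genes in the members' CPM range. The counts of calls are therefore not matched for expression level.

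CPSF recognises the AAUAAA signal and cuts the RNA, and the median of its 5 tested subunits was 0.03. CPSF3, the endonuclease, had 98.2 and 94.0 CPM in shCtrl and 95.9 and 100.4 CPM in shRPRD1B, with the groups overlapping (log2 fold change 0.03 ± 0.11). CPSF2, its inactive relative, stood at 113 and 120 CPM in shCtrl and at 100.3 and 132 CPM in shRPRD1B, so that 1 knockdown library lay below and 1 above the control pair. CPSF4, a zinc finger protein that binds the signal, showed the opposite order, with 63.1 and 63.9 CPM in shCtrl, 71.9 CPM in shRPRD1B 1 and 53.0 CPM in shRPRD1B 2. WDR33, the other signal-binding subunit, had 105.2 and 111.7 CPM in shCtrl and 112.5 and 129.9 CPM in shRPRD1B, with the lower knockdown value just above the controls (0.16 ± 0.12). FIP1L1, which links CPSF to the poly(A) polymerase, had the smallest p of the complex: 22.6 and 22.5 CPM in shCtrl and 25.5 and 25.2 CPM in shRPRD1B (0.17 ± 0.12, adjusted p = 0.745). Of its annotated exon bases 45.7% are shared with other genes, and how its reads were assigned there was not tested. The share also exceeded 10% for WDR33 (25.6%), INTS12 (21.7%), INTS8 (20.7%), PABPN1 (16.8%) and CSTF3 (14.5%), with the same limit.

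CPSF1, the large scaffold subunit, had only 1, 2, 7 and 5 counts in shCtrl 1 and 2 and shRPRD1B 1 and 2. It is required by every cell that makes mRNA, so such counts cannot be read as its level, and it was not tested. Of 12 neighbouring genes within 250 kb of CPSF1 and of at least 5 CPM, 0 differed over 2-fold within a group. Among all genes of at least 5 CPM, 0.555% did in shCtrl and 2.77% in shRPRD1B. This count concerns variation between libraries and cannot show why the counts of CPSF1 are low.

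CstF binds downstream of the cleavage site, and its 4 genes had a median of 0.15, which was 0.03 without shRPRD1B 2. CSTF1 had 48.5 and 48.9 CPM in shCtrl and 53.2 and 58.65 CPM in shRPRD1B, both knockdown libraries above both controls (0.20 ± 0.12, adjusted p = 0.717). CSTF2, the RNA-binding subunit, stood at 85.2 and 85.9 CPM in shCtrl, 85.1 CPM in shRPRD1B 1 and 106 CPM in shRPRD1B 2. CSTF2T, its intronless copy, followed with 70.2 and 71.3 CPM in shCtrl, 70.4 CPM in shRPRD1B 1 and 85.1 CPM in shRPRD1B 2. For both genes 1 knockdown library was within 1 CPM of the controls and the other lay above them (CSTF2 0.16 ± 0.14, adjusted p = 0.785; CSTF2T 0.14 ± 0.13, adjusted p = 0.803). Without shRPRD1B 2 these values were -0.00504 and -0.00496. CSTF3, the dimerising scaffold, had 72.0 and 70.6 CPM in shCtrl and 74.1 and 70.8 CPM in shRPRD1B (0.02 ± 0.11), a value that turned sign with upper-quartile factors.

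CFIm, whose binding to UGUA favours the use of distal poly(A) sites, had the highest median of the mRNA 3′-processing subcomplexes listed here (0.28 over 3 genes) and the lowest without shRPRD1B 2 (0.01). NUDT21, the UGUA-binding subunit (chromosome 16, 56429133 to 56452199, minus strand), had 51.7 and 51.2 CPM in shCtrl and 58.9 and 73.7 CPM in shRPRD1B. Both knockdown libraries lay above both controls, and shRPRD1B 2 was the higher (0.36 ± 0.145, adjusted p = 0.665 with edgeR). CPSF7, a larger subunit, had 123 and 132 CPM in shCtrl, 129 CPM in shRPRD1B 1 and 181 CPM in shRPRD1B 2, with the first knockdown library inside the control range (0.28 ± 0.18, adjusted p = 0.734). CPSF6, the alternative larger subunit, had 166 and 173 CPM in shCtrl and 161.5 and 205 CPM in shRPRD1B. Its fitted value was 0.11 ± 0.15 (adjusted p = 0.845) and -0.068 without shRPRD1B 2. In the fit of shRPRD1B 2 alone the values were 0.51 ± 0.07 for CPSF7, 0.52 ± 0.07 for NUDT21 and 0.28 ± 0.06 for CPSF6. In that of shRPRD1B 1 alone they were 0.01 ± 0.07, 0.20 ± 0.07 and -0.068 ± 0.06, in that order.

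CLP1, the RNA kinase of the CFIIm complex, had 29.4 and 30.3 CPM in shCtrl and 26.8 and 33.5 CPM in shRPRD1B, on either side of the controls. SYMPK, the symplekin scaffold that joins CPSF to CstF, had 163 and 167 CPM in shCtrl and 173 and 178 CPM in shRPRD1B, a separation of the groups by a small step (0.09 ± 0.10). RBBP6, which activates the cleavage reaction, had 121 and 128 CPM in shCtrl, 126 CPM in shRPRD1B 1 and 163 CPM in shRPRD1B 2 (0.22 ± 0.15, adjusted p = 0.745).

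Of the 2 poly(A) polymerases, the minor one differed more. PAPOLG (chromosome 2, 60756230 to 60802085, plus strand) had 23.4 and 24.2 CPM in shCtrl and 28.4 and 34.7 CPM in shRPRD1B. Both knockdown libraries lay above both controls, with the smallest p of all members (0.41 ± 0.15, 95% interval 0.04 to 0.77, adjusted p = 0.657 with edgeR). PAPOLA, the main enzyme, had 320 and 336 CPM in shCtrl, 299 CPM in shRPRD1B 1 and 380.3 CPM in shRPRD1B 2, on either side of the controls (0.05 ± 0.15, adjusted p = 0.939). This value turned to -0.13 without shRPRD1B 2.

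Among the poly(A)-binding proteins, PABPN1, which coats the tail in the nucleus and limits its length, had 46.1 and 45.8 CPM in shCtrl and 59.1 and 52.4 CPM in shRPRD1B. It is the member whose shRPRD1B 1 value was highest against the controls outside INTS3 and the untested CPSF1 (0.28 ± 0.12, adjusted p = 0.682 for both libraries; 0.36 ± 0.07, adjusted p = 0.00531 for shRPRD1B 1 alone). Of its exon bases 16.8% are shared with an overlapping gene. PABPC1, the main cytoplasmic protein, had 789 and 797 CPM in shCtrl and 843 and 968 CPM in shRPRD1B, all above the controls (0.19 ± 0.12, adjusted p = 0.731). Processed copies of PABPC1 exist in the genome and can share its reads. PABPC4 had 320 and 300.4 CPM in shCtrl and 285 and 321 CPM in shRPRD1B, with overlapping groups (-0.03 ± 0.12, adjusted p = 0.95), and its sign turned without shRPRD1B 1 (0.054) and without shCtrl 1 (0.01).

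XRN2, the termination exonuclease, had 117 and 122 CPM in shCtrl, 121 CPM in shRPRD1B 1 and 161 CPM in shRPRD1B 2 (0.24 ± 0.16, adjusted p = 0.738). Only the second knockdown library lay outside the control range.

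**Figure D2:**
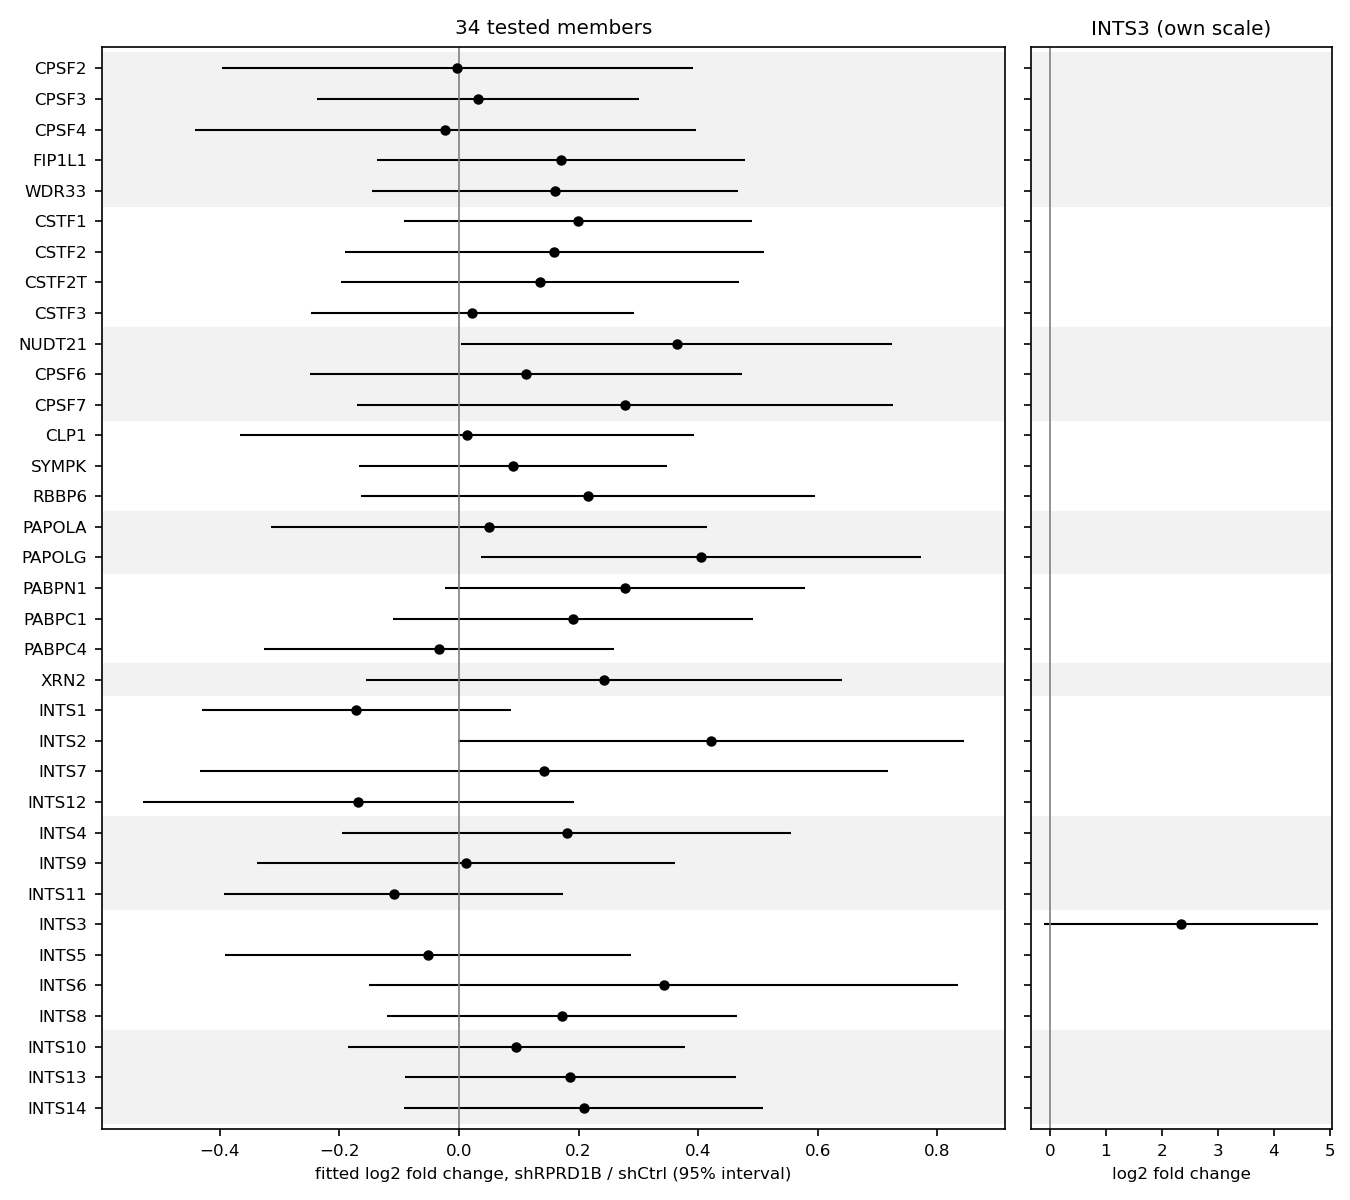
Fitted log2 fold change of shRPRD1B over shCtrl with its 95% interval for each of the 35 tested members, in bands by subcomplex, with INTS3 on a scale of its own at the right. The intervals of NUDT21 and PAPOLG lie just above zero and all others include zero; INTS3 has an interval from -0.10 to 4.80.

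Ratios between paralogues were computed within each library, which needs no scaling between libraries. PAPOLA counts were 13.65 and 13.85 times PAPOLG counts in shCtrl and 10.5 and 10.96 times in shRPRD1B, a log2 difference of -0.36 with SDs of 0.02 and 0.04 (n = 2 each). The PABPC1 to PABPC4 ratio was 2.47 and 2.65 in shCtrl and 2.96 and 3.01 in shRPRD1B, and that of CPSF6 to CPSF7 was 1.34 and 1.31 in shCtrl and 1.25 and 1.13 in shRPRD1B. In each of these 3 pairs the groups did not overlap, the exact two-sided permutation p was 0.333, the smallest that 2 against 2 can give, and the adjusted p over 4 pairs was 0.444. The CSTF2 to CSTF2T ratio was 1.214 and 1.205 in shCtrl and 1.21 and 1.247 in shRPRD1B, with overlapping groups (log2 difference 0.02, exact permutation p = 0.667). The polymerase ratio was nearly the same in shRPRD1B 1 and 2, although both genes were higher in shRPRD1B 2 than in shRPRD1B 1.

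**Figure D3:**
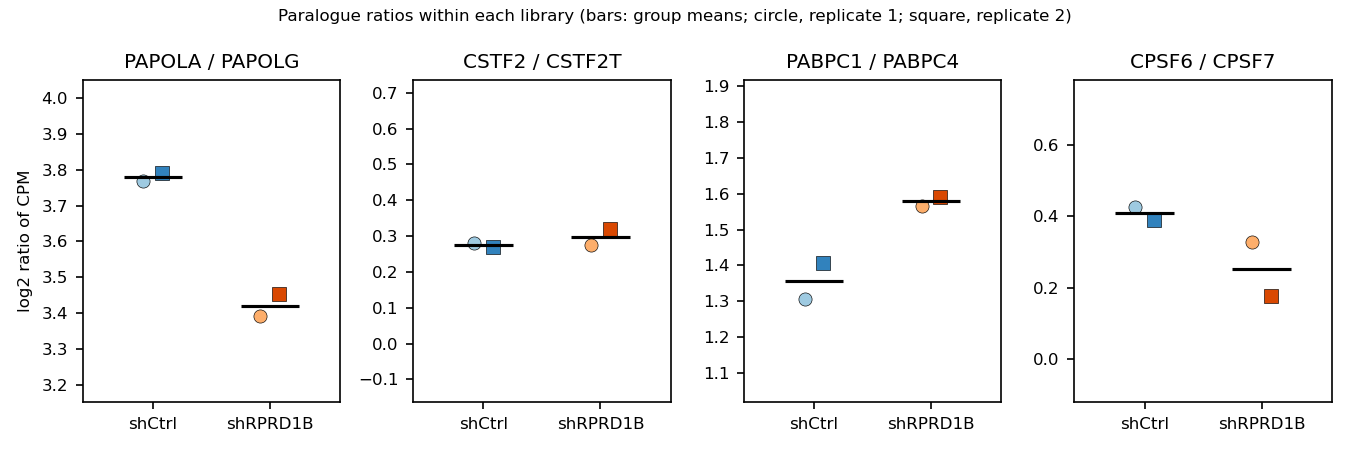
Log2 ratio of CPM between paralogues in each library, with group means as bars, circles for replicate 1 and squares for replicate 2. All panels have the same height in log2 units but do not start at zero; the PAPOLA to PAPOLG ratio averages 3.78 in shCtrl and 3.42 in shRPRD1B, and the CSTF2 to CSTF2T ratio stays between 0.27 and 0.32.

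Integrator as a whole had a median of 0.16 over 14 tested genes, with 7 above both controls in both knockdown libraries (50%, against 20.3% of all genes) and 3 below both (21.4%, against 20.6%). The cleavage and polyadenylation members had the same rounded median over 21 genes, with 8 above (38.1%) and 0 below. The difference between the machineries was not tested.

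The backbone held values of both signs. INTS1, the largest subunit, had 273 and 268 CPM in shCtrl and 235 and 245 CPM in shRPRD1B (-0.17 ± 0.105), both below the controls. INTS12, a PHD finger protein that binds INTS1, had 18.5 and 21.4 CPM in shCtrl and 18.0 and 17.4 CPM in shRPRD1B (-0.17 ± 0.15), also below. INTS2 (chromosome 17, 61865367 to 61928016, minus strand) went the other way, with 37.1 and 38.6 CPM in shCtrl and 43.2 and 58.2 CPM in shRPRD1B, both above the controls (0.42 ± 0.17, adjusted p = 0.668 with edgeR). INTS7 had 67.5 and 74.9 CPM in shCtrl, 60.3 CPM in shRPRD1B 1 and 96.95 CPM in shRPRD1B 2, the widest gap between the knockdown libraries outside INTS3.

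The cleavage module had a median of 0.01, which was -0.01 with upper-quartile factors and -0.03 without shRPRD1B 2. INTS11, the endonuclease, had 166.5 and 164 CPM in shCtrl and 162 and 144 CPM in shRPRD1B, both below the controls (-0.11 ± 0.12). INTS9, its inactive partner, had 19.0 and 18.1 CPM in shCtrl and 17.7 and 19.8 CPM in shRPRD1B (0.01 ± 0.14). INTS4, the scaffold that holds both, had 36.9 and 38.5 CPM in shCtrl, 37.8 CPM in shRPRD1B 1 and 47.7 CPM in shRPRD1B 2 (0.18 ± 0.15, adjusted p = 0.777).

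Of the genes linked to the phosphatase arm, INTS6, which contacts PP2A, had 21.0 and 20.4 CPM in shCtrl and 21.6 and 31.0 CPM in shRPRD1B (0.34 ± 0.20). INTS8 had 83.7 and 89.0 CPM in shCtrl and 92.0 and 102.5 CPM in shRPRD1B (0.17 ± 0.12), and INTS5 had 60.7 and 61.4 CPM in shCtrl and 53.2 and 64.7 CPM in shRPRD1B (-0.05 ± 0.14). INTS6 and INTS8 separated the groups and INTS5 did not.

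INTS3, listed here with the phosphatase arm and which also belongs to the SOSS complex that binds single-stranded DNA, stood apart from every other tested member. It had 78 and 379 counts in shCtrl 1 and 2 and 764 and 2017 counts in shRPRD1B 1 and 2, or 1.65, 7.79, 11.7 and 36.8 CPM. The libraries of a group differed 4.73-fold in shCtrl and 3.16-fold in shRPRD1B, and the fitted value carried that spread (2.35 ± 0.905, 95% interval -0.10 to 4.80, adjusted p = 0.677 with edgeR). Leaving out 1 library at a time gave values from 1.297 (without shRPRD1B 2) to 3.87 (without shCtrl 2). Differences over 2-fold within both groups were found for 34 of 11541 genes of at least 5 CPM (0.295%). Of 11 other genes within 250 kb of INTS3 (chromosome 1, 153728067 to 153774808, plus strand) and of at least 5 CPM, 0 differed over 2-fold within a group. Among all genes of at least 5 CPM, 0.555% did in shCtrl and 2.77% in shRPRD1B. Its level per kilobase of transcript, 0.901 CPM in shCtrl, was the lowest of the tested members.

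The INTS10, INTS13 and INTS14 module was the one Integrator part in which every gene lay above both controls in both knockdown libraries. That is 3 of 3 genes, against 20.3% of all genes and 24.1% of genes in the members' CPM range. The phosphatase arm was close, with 3 of 4 genes above. INTS14 had 88.6 and 86.3 CPM in shCtrl and 94.2 and 108 CPM in shRPRD1B (0.21 ± 0.12, adjusted p = 0.716). INTS13 had 94.7 and 90.1 CPM in shCtrl and 101 and 109 CPM in shRPRD1B (0.19 ± 0.11). INTS10 had 66.6 and 73.0 CPM in shCtrl and 75.0 and 74.3 CPM in shRPRD1B, a separation smaller than the gap between the control libraries (0.10 ± 0.11).

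Levels within a complex were compared per kilobase of 1 transcript per gene. PABPC1 was the highest of all members at 228 CPM per kilobase in shCtrl, followed by PABPC4 at 102, INTS11 at 76.9 and PAPOLA at 72.5, while PAPOLG stood at 5.59. In CPSF the endonuclease gene CPSF3 (41.0) and CPSF4 (37.55) were above WDR33 (11.45), FIP1L1 (10.25) and CPSF2 (8.92). In CstF the order was CSTF2 (43.7), CSTF3 (25.5), CSTF2T (17.2) and CSTF1 (11.35). The CFIm order was CPSF7 (35.04), CPSF6 (25.6) and NUDT21 (11.6). In the Integrator cleavage module INTS11 far exceeded INTS4 (11.95) and INTS9 (7.29). The order within CPSF, CstF, CFIm and the cleavage module was the same in the group means of shRPRD1B, although CPSF7 moved up to 42.5 CPM per kilobase and NUDT21 to 14.9. In shRPRD1B 1 alone CPSF4 (42.54) stood above CPSF3 (40.91). With the length of all annotated exons in place of 1 transcript, INTS11 went from rank 3 to rank 12 of the 36 members and SYMPK from 7 to 16. On that length CSTF2T (17.23) stood above CSTF3 (15.8) in shCtrl, and CPSF2 (8.555) above WDR33 (7.435) and FIP1L1 (3.996). Part of the order, also within CPSF and CstF, thus rests on the gene model.

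**Figure D4:**
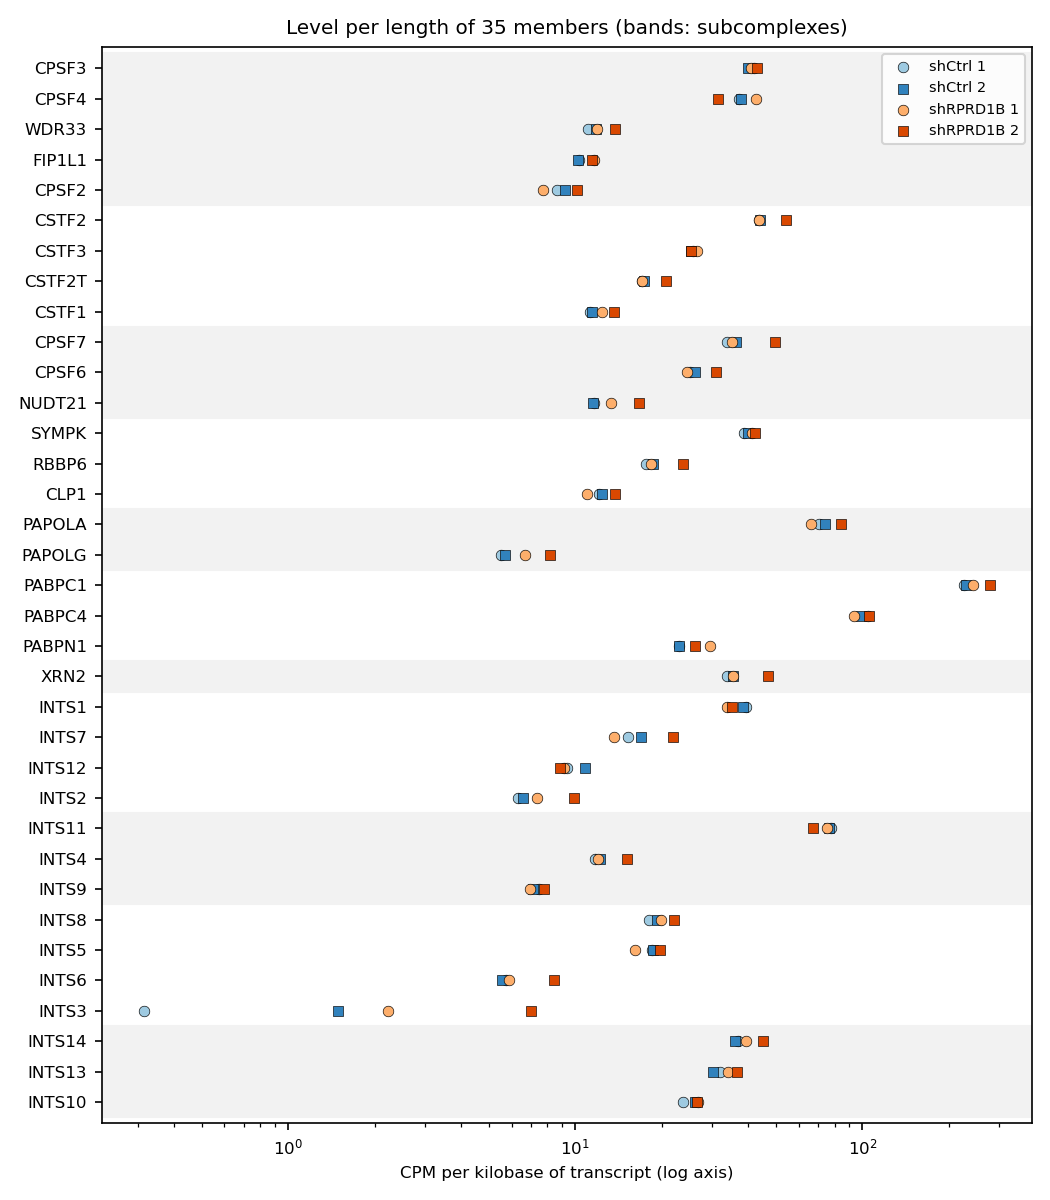
CPM per kilobase of transcript (log axis) of 35 members in each library, in bands by subcomplex and sorted by the shCtrl mean within each. PABPC1 is the highest in every library, and the libraries of INTS3 are spread from 0.315 to 7.03.

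The fold changes were also set beside the sequence features shown at the start. The median log2 fold change was 0.16 over the 7 members with the word TTTGGCG, with values from 0.01 (CLP1) to 0.42 (INTS2), and 0.17 over the 22 members with a promoter but without the word. Among tested coding genes the medians were 0.05 with the word (316 genes) and 0.02 without it. The 29 members with AATAAA had a median of 0.16, the 4 tested members with neither signal had 0.03, and the 2 with ATTAAA had -0.02 (CPSF4) and 2.35 (INTS3). Over tested coding genes the medians were 0.02 with AATAAA, 0.02 with ATTAAA and 0.01 with neither. The median 3′ UTR of the members was 499 bases, against 1091 bases over tested coding genes.

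Other genes of the pathways gave no called member either. Of 18 further cleavage and polyadenylation genes 13 were tested, with 0 called by edgeR or DESeq2, 0 at an unadjusted p under 0.05, 8 positive and a median of 0.14. SCAF8, which like RPRD1B binds the polymerase C-terminal domain, had 48.3 and 51.4 CPM in shCtrl and 55.1 and 85.1 CPM in shRPRD1B (0.49 ± 0.22, adjusted p = 0.682). SCAF4, its relative, had 67.4 and 67.7 CPM in shCtrl and 73.3 and 94.1 CPM in shRPRD1B (0.31 ± 0.15, adjusted p = 0.696), and PABPC1L 48.5 and 47.4 CPM in shCtrl and 64.25 and 52.6 CPM in shRPRD1B (0.28 ± 0.14, adjusted p = 0.696). These 3 had the smallest p of the list, a choice that favours groups that do not overlap. All 3 had both knockdown libraries above both controls, SCAF8 and SCAF4 with shRPRD1B 2 the higher. Of the 13 tested genes, 4 lay above (30.8%, against 20.3% of all genes) and 1 below (7.69%, against 20.6%). PCF11, the partner of CLP1, had 66.6 and 70.6 CPM in shCtrl and 63.8 and 87.5 CPM in shRPRD1B, on either side of the controls.

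The 9 genes associated with Integrator were all tested, with 0 called by edgeR or DESeq2, 0 at an unadjusted p under 0.05, 5 positive and a median of 0.05. INTS6L, the paralogue of INTS6, had 29.6 and 28.2 CPM in shCtrl and 32.8 and 31.1 CPM in shRPRD1B (0.14 ± 0.12, adjusted p = 0.777). INTS15 had 38.7 and 38.9 CPM in shCtrl and 39.4 and 45.5 CPM in shRPRD1B (0.13 ± 0.13, adjusted p = 0.806), and PPP2CA, a PP2A catalytic subunit, had 25.25 and 26.65 CPM in shCtrl and 27.7 and 28.5 CPM in shRPRD1B (0.11 ± 0.12, adjusted p = 0.815). These 3 had the smallest p of their list, a choice that favours groups that do not overlap. In each both knockdown libraries lay above both controls. Over the 9 genes, 4 lay above (44.4%, against 20.3% of all genes) and 1 below (11.1%, against 20.6%).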

How the data were processed

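The authors deposited a table of whole read counts by gene for each library; per the submitters' processing notes, Trim Galore, HISAT2, featureCounts and hg38 were used. Versions, gene annotation, strandedness and the handling of multiply mapped reads were not given in the sources used here, so overlapping genes and near-identical copies cannot be separated. The deposited counts were tested with edgeR 4.0.16 (R 4.3.3; quasi-likelihood, robust, TMM, filterByExpr, group as the only term), with Benjamini-Hochberg adjustment over 20319 genes and a threshold of 0.05. Log2 CPM used a prior count of 2. DESeq2 1.42.0 and limma 3.58.1 (voom) were alternatives, as were other scaling factors, filters, a replicate term and each library left out. The fit was tested on simulated data. Symbols matched 62686 of 69222 identifiers. Within each group the libraries differed beyond sampling noise, with a chi-square of 8.18 times its degrees of freedom in shCtrl and 87.0 times in shRPRD1B, and all 4 were counted.

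Gene models came from GENCODE 29 and promoters from RefSeq (GRCh38.p14); CPSF1, INTS5, INTS8, INTS9, INTS10, PABPC1 and PABPC4 had no entry used there. The members, subcomplexes and lists were chosen with earlier results of these data known. Adjusted p-values are given for the member with the smallest p in each subcomplex, any at an unadjusted p under 0.05 or varying over 2-fold within a group, the paralogue pairs, and the 3 smallest p of each further list. Other members are given with their levels and, for most, the fitted value and its SE.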

Additional observations from a re-analysis of the deposited data

How the results depend on the processing

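The median of the members was between 0.13 and 0.16 under every other scaling, tool and filter tried, and between 0.03 (without shRPRD1B 2) and 0.25 (without shRPRD1B 1) with 1 library left out. No member was called by DESeq2, limma voom or edgeR's older fit (added after seeing the data). The labels share replicate numbers but do not say that they pair samples; the library differences of the groups correlated at 0.209 over 8966 genes. For the edgeR fit with the replicate block no share of all genes is given, so its counts cannot be read against those of the main fit. With the replicate block 1 member was called higher, INTS3 (2.47, adjusted p = 0.000316), and 4 had an unadjusted p under 0.05 and a positive value. That count was 1 with upper-quartile factors, 4 with DESeq2, and 0 to 21 higher and 0 to 5 lower with 1 library left out. Called members then ranged from 0 to 19 higher and from 0 to 2 lower, and other pathway genes from 0 to 7 higher and from 0 to 2 lower. RPRD1B passed the threshold with DESeq2 (-0.68) and with either knockdown library alone (-0.88 to -0.50). With 1 library left out, PABPC4 ranged from -0.12 (without shRPRD1B 2) to 0.054 (without shRPRD1B 1), turning sign there and without shCtrl 1 (0.013). From without shRPRD1B 2, where the sign turned, to without shRPRD1B 1, PAPOLA ranged from -0.13 to 0.22, CSTF2 from -0.00504 to 0.31, CSTF2T from -0.00496 to 0.27 and CPSF6 from -0.068 to 0.28. The cause of these changes was not tested. CPSF1 had too few counts for a fold change at any depth reached here.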
